A study of Homo sapiens with 4 samples.

Results

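The genes followed here are DACH1 and its partners of the SIX-family and EYA genes, 8 of the 58825 genes counted in LoVo cells. They are DACH1, SIX2, SIX4, SIX5, EYA1, EYA2, EYA3 and EYA4, and they were taken by symbol with DACH1's counts in MET+ and MET-KO cells already known. That comparison therefore chose the genes, and its values for these 8 are given as a description with no test.

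LoVo is a human line established from a colorectal adenocarcinoma, in which the MET receptor tyrosine kinase reaches the surface uncleaved and active without its ligand. MET+ cells are the GFP control with a wild-type MET genotype, and MET-KO cells had MET inactivated with CRISPR/Cas9 and were grown from picked single clones. RNA was sequenced from 2 biological replicates of each group with a kit that reads the 3' end of polyadenylated transcripts, so a gene's reads do not depend on its length. The labels give both groups the same culture conditions and name no drug. Whether both MET-KO libraries came from 1 clone is not stated, and loss of MET and a difference between the clone and the control cells cannot be told apart.

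DACH1, SIX-family and EYA proteins form a regulatory network first worked out in the insect eye and used again in the vertebrate kidney, muscle, ear and sensory placodes. SIX-family proteins are homeodomain factors that bind DNA, EYA proteins are coactivators with phosphatase activity that these factors bring to the gene, and DACH1 carries a SKI/SNO-type domain and acts mostly as a corepressor. In the developing kidney and muscle the network works downstream of PAX factors.

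DACH1 had no read in either MET+ library and stood among the most abundant of the genes silent in MET+ in both MET-KO libraries. SIX4 was 2.47-fold higher in MET-KO cells, on chromosome 14, where the median log2 fold change of the tested genes was -0.51. SIX5 and EYA3 were read in every library with differences close to the replicate spread. SIX2, EYA1, EYA2 and EYA4 were at or below 1 count in each library. The upstream 250 bases of the members that carry these patterns are shown from the RefSeq promoter table (GRCh38.p14), which was used for 5 of the 8 genes. It held no entry for SIX5 and EYA2, and EYA1 was left out of the search. Each is written 5' to 3' on the gene's strand, ends at the base before the RefSeq start, and has its CpG dinucleotides in capitals. DACH1 and SIX4 are the members higher in MET-KO cells, and SIX2 and EYA4 are members silent in every library. DACH1 lies at chr13:71867205-71867454 and SIX4 at chr14:60724352-60724601, both on the minus strand. SIX2 lies at chr2:45009453-45009702 on the minus strand, and EYA4 at chr6:133241107-133241350 on the plus strand, where the last 6 bases before its start fall in an annotated exon and were left out.
DACH1: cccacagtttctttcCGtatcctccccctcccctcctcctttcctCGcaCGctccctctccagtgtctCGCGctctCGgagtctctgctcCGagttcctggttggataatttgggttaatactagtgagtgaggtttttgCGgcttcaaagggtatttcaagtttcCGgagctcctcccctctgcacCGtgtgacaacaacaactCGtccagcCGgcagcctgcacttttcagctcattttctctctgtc
SIX4: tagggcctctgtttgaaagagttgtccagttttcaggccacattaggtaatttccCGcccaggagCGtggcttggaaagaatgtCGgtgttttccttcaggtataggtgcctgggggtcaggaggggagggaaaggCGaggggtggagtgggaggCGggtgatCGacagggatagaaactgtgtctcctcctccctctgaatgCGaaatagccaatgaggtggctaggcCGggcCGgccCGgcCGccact
SIX2: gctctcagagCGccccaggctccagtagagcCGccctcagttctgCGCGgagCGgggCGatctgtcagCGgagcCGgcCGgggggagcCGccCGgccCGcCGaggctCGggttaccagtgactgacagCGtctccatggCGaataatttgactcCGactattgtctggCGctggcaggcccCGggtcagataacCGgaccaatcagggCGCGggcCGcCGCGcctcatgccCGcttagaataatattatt
EYA4: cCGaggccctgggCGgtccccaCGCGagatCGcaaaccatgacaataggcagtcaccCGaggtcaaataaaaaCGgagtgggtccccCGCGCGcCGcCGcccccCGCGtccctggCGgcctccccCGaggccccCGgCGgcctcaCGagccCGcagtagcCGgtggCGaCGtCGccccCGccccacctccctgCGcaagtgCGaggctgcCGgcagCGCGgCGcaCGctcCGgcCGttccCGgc

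The DACH1 window held 12 CpG dinucleotides and a GC content of 54.0%, and the SIX4 window held 11 with a GC content of 58.0%. Over all 35116 promoters of the table the median was 11 CpG (quartiles 3 and 23) and 58.0% GC, so the windows of both genes that were higher in MET-KO cells lay at the middle of all promoters. Among the silent genes only SIX2 and EYA4 were compared, and both windows were denser than those of DACH1 and SIX4. SIX2 had 26 CpG and 65.6% GC, and EYA4 had 36 CpG and 75.2% GC over its full 250 bases. Of the other silent genes, EYA2 had no entry and EYA1 was left out by choice. The comparison therefore covers the silent members only in part. EYA3, which was read in every library, had 20 CpG and 62.4% GC. Short motifs were searched on both strands, namely TCAGGTT (the MEF3 site bound by SIX-family proteins), GGAATG (bound by TEAD factors), TGANTCA (bound by AP-1) and TATAAA (the TATA box). None of the 5 windows held any of them, and over all promoters they were present in 2.79%, 11.9%, 6.57% and 10.7%, respectively. The absence says only that these letters are not in these windows.

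The libraries held 8429142 to 10286552 counts and 17849 to 19722 genes with a count. Of 13801 genes with enough reads to be tested, 7467 passed an adjusted p of 0.05 (edgeR's quasi-likelihood test, adjusted by Benjamini-Hochberg), that is 54.1% (27.2% higher and 26.9% lower in MET-KO), and the median log2 fold change was 0.01. MET itself gave 2794 and 3272 counts in the control cells against 861 and 965 in the knock-out cells, a log2 fold change of -1.96 (SE 0.09, adjusted p = 1.49e-18, edgeR's quasi-likelihood test). These 3' reads measure the level of the MET transcript and not the edited site. The groups also stood apart on chromosome Y, with 57 and 45 counts in the MET+ pair against 7200 and 7330 in the MET-KO pair, and its part in the results was not tested. Of 12 intestinal epithelium markers, 11 were tested, 8 fell and 2 rose, and their summed level was 9683 and 9716 CPM (the count as a share of the composition-scaled library, set to a common total) in MET+ against 8321 and 7337 CPM in MET-KO. Among them CDX1 was at 0 in every library, and CDH17 and GPA33 were at 0 in both MET-KO libraries. The markers that rose were CDX2, an intestinal homeodomain factor, from 525 and 648 to 1477 and 1338 counts (log2 fold change 1.04), and KRT20, a keratin of differentiated epithelium, from 0 in both MET+ libraries to 27 and 28 counts. The 8 fibroblast markers, of which 2 were tested, summed to 1.64 to 2.18 CPM in MET+ and 3.63 to 4.33 CPM in MET-KO. COL1A2, DCN and POSTN were at 0 throughout. COL3A1, a fibrillar collagen, was higher in MET-KO (4 and 5 against 24 and 26 counts, adjusted p = 0.00109, edgeR's quasi-likelihood test). COL1A1, the other tested marker, was not called (13 and 10 against 13 and 19 counts, adjusted p = 0.718, edgeR's quasi-likelihood test). Summed markers of skeletal muscle and of endothelium and blood stayed at or below 0.718 CPM in each library. In bulk RNA, a change in the share of cells of a kind and a change in RNA per cell cannot be told apart.

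DACH1 (ENSG00000276644, chromosome 13, 71437966 to 71867192, minus strand, GENCODE 29 on GRCh38) encodes the corepressor of the network. Both MET+ libraries gave 0 counts, against 1307 and 1464 counts in MET-KO. On the CPM scale the MET-KO libraries held 128 and 135, a mean of 131 ± 4.71 CPM (SD, n = 2). Both MET-KO libraries lay far above both MET+ libraries and differed little from each other. A count of 0 allows up to 3 counts, which corresponds to 0.363 and 0.308 CPM in the MET+ libraries and covers counting error only. Against this limit set per library, MET-KO cells held at least 392-fold higher DACH1, and the bound lay between 363-fold and 427-fold under the other scalings and with each replicate left out. Processed pseudogenes within DACH1 lie on the opposite strand, and the highest of them, RPL35AP31, had at most 3 counts in a library.

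The level of DACH1 was compared with that of other genes silent in MET+ cells. In all, 3328 genes had 0 counts in both MET+ libraries and a count in MET-KO, and DACH1 ranked 4 among them by mean MET-KO CPM, or 3 with chromosome Y left out. Its rank stayed 4 among the 4524 genes with at most 1 count in each MET+ library. Only 48 of the 3328 genes reached 10 CPM, of which 44 were protein coding, 7 were on chromosome Y and DACH1 was the only one on chromosome 13. Among all 21198 genes with a MET-KO count, 95.1% lay below DACH1. In the opposite direction, 1955 genes had 0 counts in both MET-KO libraries and a count in MET+, and 3 of these were at or above the level DACH1 had in MET-KO cells.

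The genes most like DACH1, by 0 counts in MET+ and the nearest mean CPM in MET-KO outside chromosome Y, came from several chromosomes and from unrelated families. Above it were CLDN11, a tight junction claudin, with 252 ± 15.1 CPM, and MYADM, a membrane protein of the myeloid-associated differentiation marker family, with 229 ± 28.8 CPM (SD, n = 2 each). Below it were SAA1, an acute-phase apolipoprotein, with 128 ± 13.3 CPM, and KRT31, a hair keratin, with 123 ± 12.1 CPM (SD, n = 2 each). IGFBP7, a secreted protein that binds insulin-like growth factors, had 111 ± 1.25 CPM, NPPB, a natriuretic peptide precursor, 74.7 ± 10.4 CPM, and CCL2, a monocyte chemokine, 73.4 ± 4.06 CPM (SD, n = 2 each). DACH1, SAA1 and KRT31 could not be ordered, since their means differed by less than the SD of SAA1 or KRT31, while CLDN11 and MYADM lay above DACH1 by more than their SD.

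**Figure D1:**
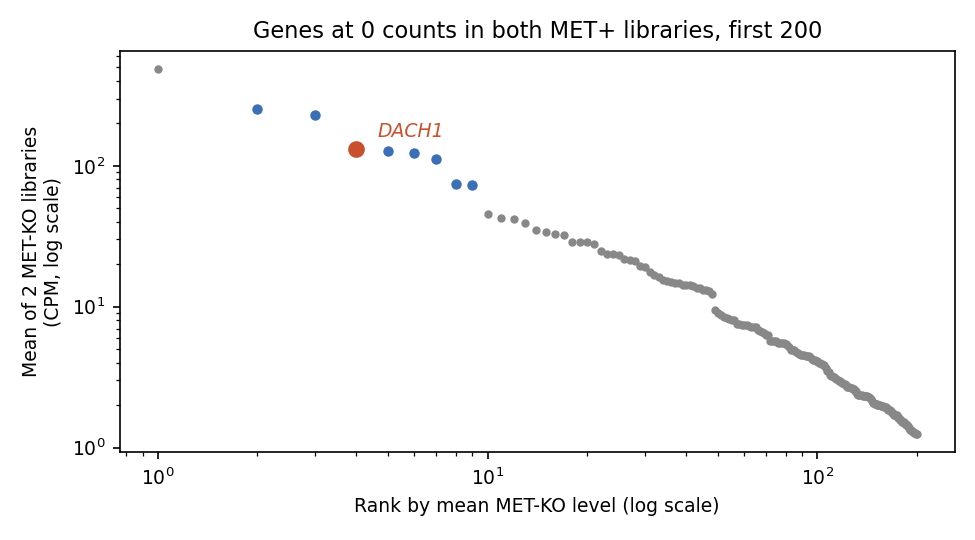
Mean level in 2 MET-KO libraries (CPM, log scale) against rank (log scale) for the first 200 genes with 0 counts in both MET+ libraries; each point is a gene, DACH1 is orange-red and the genes most like it are blue. DACH1 stands at rank 4 with 131 CPM, and 48 genes lie at or above 10 CPM.

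The genes around DACH1 did not share its pattern. Of 10 tested genes lying at least partly within 5 Mb of DACH1, 2 were higher and 4 lower in MET-KO, with a median log2 fold change of -0.16. The nearest tested gene on one side, MZT1, a small component of the gamma-tubulin ring complex, began 841 kb away and had a log2 fold change of 0.07 (adjusted p = 0.587, edgeR's quasi-likelihood test). The nearest tested gene on the other side, TDRD3, a Tudor-domain protein, lay 10864 kb away with a log2 fold change of -0.31 (adjusted p = 0.170, edgeR's quasi-likelihood test). The 10 genes within 5 Mb therefore all lay on the MZT1 side. Across the whole of chromosome 13 (239 tested genes) the median was 0.09.

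SIX4 (ENSG00000100625, chromosome 14, 60709528 to 60724348, minus strand), a homeodomain factor, gave 86 and 111 counts in MET+ against 301 and 265 in MET-KO. This was 10.4 and 11.4 CPM against 29.5 and 24.4 CPM, so the groups did not overlap. Its mean was 10.9 ± 0.708 CPM (SD, n = 2) in MET+ against 27.0 ± 3.61 CPM (SD, n = 2) in MET-KO, and the log2 fold change was 1.30 (SE 0.17). Across all alternative settings that gave it a value, the log2 fold change stayed between 1.16 and 1.44. No other annotated gene overlaps SIX4.

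Most genes near SIX4 were lower in MET-KO cells. On chromosome 14 the median log2 fold change of 477 tested genes was -0.51 and 67.3% were called in either direction, against 54.1% over all genes. SIX4 stood at percentile 97.1 of the chromosome. Within 5 Mb of SIX4, 35 of 47 other tested genes fell, 4 rose and the median was -0.59. Over all tested genes 26.9% fell and 27.2% rose. The lower median was thus found across chromosome 14 and not only near SIX4. In that window 3 genes had a larger log2 fold change than SIX4, namely RTN1 (4.56), a reticulon of neuroendocrine cells, DACT1 (3.29), a modulator of Wnt signalling, and ARMH4 (1.41). RTN1 gave 7 and 0 counts in MET+ against 104 and 96 in MET-KO, and DACT1 gave 1 and 4 against 33 and 26. The size of both changes thus rests on few MET+ reads. The tested gene that follows SIX4, MNAT1, a subunit of the CDK-activating kinase 10.4 kb away, fell with a log2 fold change of -0.75 (adjusted p = 0.000114, edgeR's quasi-likelihood test).

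**Figure D2:**
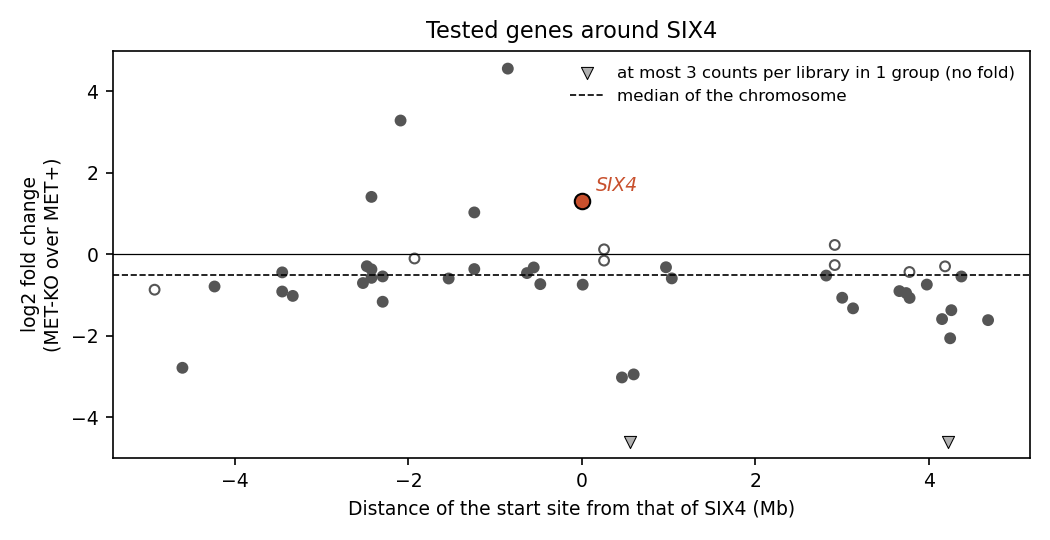
log2 fold change (MET-KO over MET+) of tested genes against the distance of their start from that of SIX4 (Mb); filled grey points were called, open points were not, triangles are genes with at most 3 counts per library in 1 group drawn at the plot's edge, and the dashed line is the median of chromosome 14. SIX4 lies at 1.30, with most of the surrounding genes below 0.

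SIX5 (ENSG00000177045, chromosome 19, 45764785 to 45769226, minus strand), the SIX-family gene next to the myotonic dystrophy kinase gene DMPK, had more reads than SIX4 in each library. MET+ libraries gave 321 and 480 counts against 481 and 511 in MET-KO, which is 38.8 and 49.3 CPM against 47.2 and 47.1 CPM. The groups overlapped, since both MET-KO libraries lay between the MET+ libraries. Its mean was 44.0 ± 7.41 CPM (SD, n = 2) in MET+ against 47.1 ± 0.0753 CPM (SD, n = 2) in MET-KO, and the log2 fold change was 0.09 (SE 0.12). MET+ replicate 1 and replicate 2 set its sign, as the value was -0.06 without replicate 1 and 0.27 without replicate 2. The antisense gene DM1-AS overlaps SIX5 and had 5 to 20 counts, and because the strand setting of the counting is not given, reads in their overlap cannot be told apart. DMPK, 0.491 kb away, had a log2 fold change of 0.00 (adjusted p = 0.999, edgeR's quasi-likelihood test) at 17 to 35 counts.

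SIX4 and SIX5 can be compared within a library without scaling. Together they numbered 407 and 591 reads in MET+ against 782 and 776 in MET-KO. SIX4 took 21.1% (95% Wilson interval 17.4 to 25.4) and 18.8% (15.8 to 22.1) of them in MET+, against 38.5% (35.1 to 41.9) and 34.1% (30.9 to 37.6) in MET-KO. These intervals, which cover counting error only, did not overlap between the groups. SIX4 had 0.268 and 0.231 reads per SIX5 read in MET+, against 0.626 and 0.519 in MET-KO. The means were 0.250 ± 0.0259 and 0.572 ± 0.0758 (SD, n = 2 each), a ratio of 2.29, which ranged from 2.08 to 2.51 when each replicate was left out, an alternative chosen after seeing the data. This ratio comes from the comparison that chose the genes and is not tested. SIX2, SIX3 and SIX6 had 0 counts in all 4 libraries.

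**Figure D3:**
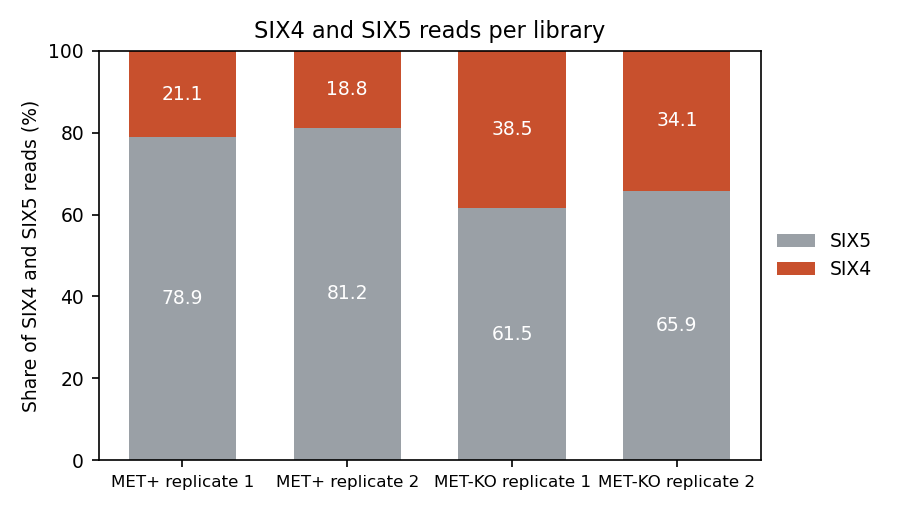
Share of SIX4 and SIX5 reads (%) on SIX5 (grey) and SIX4 (orange-red) in each of the 4 libraries, without error bars. The SIX4 share is 21.1% and 18.8% in MET+ and 38.5% and 34.1% in MET-KO, and SIX5 holds most reads throughout.

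EYA3 (ENSG00000158161, chromosome 1, 27970344 to 28088696, minus strand) was in effect the only EYA coactivator read, with 99.5% to 99.7% of the 218 to 326 EYA reads of a library. It gave 217 and 240 counts in MET+ against 325 and 295 in MET-KO, or 26.2 and 24.6 CPM against 31.9 and 27.2 CPM. The MET-KO libraries lay above the MET+ libraries by a narrow margin. With DACH1 and SIX4, EYA3 made 3 of 4 tested members whose groups did not overlap, all higher in MET-KO, where over all tested genes 75.6% did not overlap (38.5% higher and 37.1% lower). Its mean was 25.4 ± 1.12 CPM (SD, n = 2) in MET+ against 29.5 ± 3.32 CPM (SD, n = 2) in MET-KO, and the log2 fold change was 0.22 (SE 0.14), ranging from 0.09 to 0.33 across the alternative settings. EYA3 stood at percentile 60.8 of its chromosome, and its neighbours XKR8, a phospholipid scramblase, and DNAJC8, a splicing-associated DnaJ protein, were not called.

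The remaining EYA coactivators and SIX2 were silent at this depth. EYA1 (ENSG00000104313, chromosome 8), the EYA gene of branchial arch and kidney development, had 1 count in each of the 4 libraries. EYA2 (ENSG00000064655, chromosome 20, 46894624 to 47188844, plus strand) and EYA4 (ENSG00000112319, chromosome 6, 133240598 to 133532120, plus strand) had 0 counts in each library. SIX2 (ENSG00000170577, chromosome 2, 45005161 to 45009430, minus strand), which keeps nephron progenitors in their self-renewing state, also had 0 counts in each library. A count of 0 allows 0.276 to 0.363 CPM in these libraries, so a difference below that level was not detectable. Within EYA2 lies an opposite-strand pseudogene, AL022342.1, with 16 to 44 counts, and no read was assigned to EYA2 itself.

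Genes beside these silent members were read in some cases. TCF21, a basic helix-loop-helix factor of mesenchyme and the tested gene following EYA4, gave 0 and 1 counts in MET+ against 107 and 108 in MET-KO, a ratio of 184 with a 95% counting interval of 32.7 to 7299 (adjusted p = 2.00e-12, edgeR's quasi-likelihood test). The ratio for TCF21 was 99.5 (17.7 to 3947) without MET+ replicate 1, and without replicate 2, which held the only MET+ read, it was at least 28.2-fold higher against 3 counts. TARID, an antisense RNA that overlaps both EYA4 and TCF21, gave 0 and 1 counts in MET+ against 8 and 6 in MET-KO. EYA4 itself had no read in the same MET-KO libraries. TRPA1, a cation channel of sensory neurons next to EYA1, rose from 10 and 20 to 181 and 210 counts, a log2 fold change of 3.47 (adjusted p = 5.58e-13, edgeR's quasi-likelihood test). ZMYND8, a chromatin reader next to EYA2, rose with a log2 fold change of 0.51 (adjusted p = 0.000233, edgeR's quasi-likelihood test). Of 15 tested neighbours of the 8 members, 3 rose, 1 fell (MNAT1) and 11 were not called. Over all tested genes 54.1% were called (27.2% higher and 26.9% lower), so calls were not more frequent among these neighbours.

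Of the 8 members, 4 had enough reads to enter the fit across all genes, DACH1 through its MET-KO libraries alone. DACH1 and SIX4 lay past its threshold on the higher side, where 27.2% of all tested genes lay, and the median log2 fold change of the 4 was 0.76 against 0.01 over all tested genes. The genes were chosen from this contrast, so the count and the median are a description and not a test. By mean level in MET+ cells the order was SIX5, EYA3, SIX4 and then DACH1 at 0 counts, and in MET-KO cells it was DACH1, SIX5, EYA3 and SIX4. In the MET-KO libraries EYA3 and SIX4 differed by less than the SD of either, so this pair has no firm order.

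**Figure D4:**
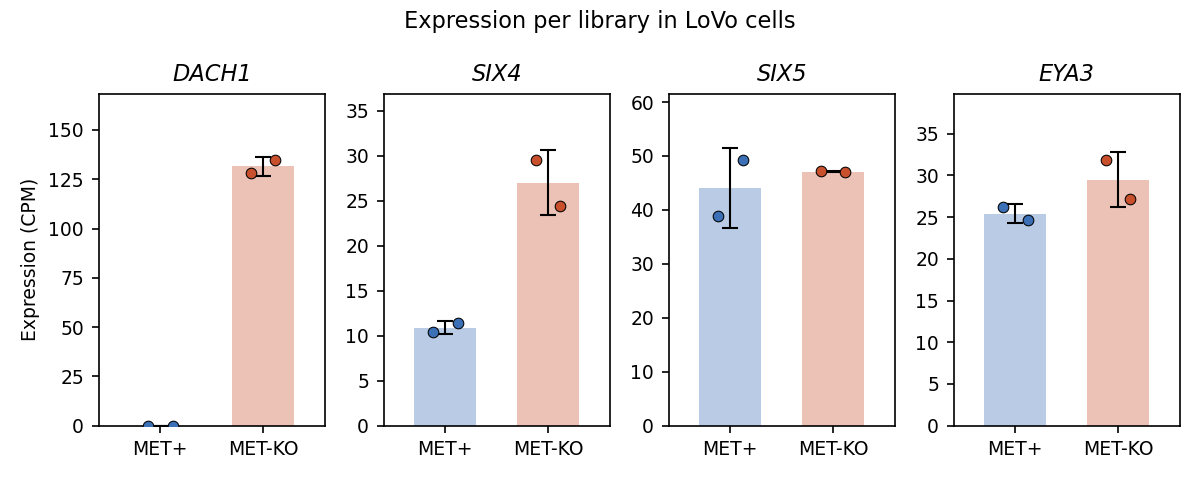
Expression (CPM) of DACH1, SIX4, SIX5 and EYA3 in MET+ (blue) and MET-KO (orange-red) cells; points are libraries, bars the mean of 2 libraries and error bars the SD, and each panel has its own axis from 0. DACH1 appears in MET-KO alone, SIX4 is higher in MET-KO, SIX5 overlaps between groups and EYA3 differs by a narrow margin.

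Other genes of the network were taken as lists of relatives (SIX-family, DACH and PAX genes), cofactors and reported targets. Their counts stand beside 54.1% of all tested genes called (27.2% higher and 26.9% lower) and a median log2 fold change of 0.01 over all genes. Of 12 relatives outside the members, 3 were tested, 1 rose, 1 fell and 7 had 0 counts in every library, with a median log2 fold change of 0.17. DACH2, the paralog of DACH1, was among those at 0, so DACH1 was the only DACH gene read. PAX2, a paired-box factor upstream of the network in kidney, gave 0 and 2 counts in MET+ against 24 and 20 in MET-KO, a ratio of 18.8 with a counting interval of 4.91 to 160 (adjusted p = 5.30e-05, edgeR's quasi-likelihood test). Without MET+ replicate 1 the PAX2 ratio was 10.2 (2.66 to 86.7), and without replicate 2, which held both MET+ reads, PAX2 was at least 5.79-fold higher against 3 counts. PAX5, a B-cell paired-box factor, went from 7.44 ± 1.81 to 4.25 ± 1.15 CPM (SD, n = 2 each), and its log2 fold change was -0.81 (SE 0.29, adjusted p = 0.0178, edgeR's quasi-likelihood test). The PAX5 call was lost with DESeq2's Wald test, where its adjusted p was 0.0941, without MET+ replicate 2 and without MET-KO replicate 1. PAX6, the eye and islet paired-box factor, gave 8 and 13 counts in MET+ against 0 in both MET-KO libraries, at least 4.03-fold lower, and was too low to be tested; it overlaps ELP4 on the opposite strand. Among 8 nephron progenitor markers, which include PAX2 and PAX8, the summed level was 7.37 and 9.65 CPM in MET+ and 5.00 and 4.88 CPM in MET-KO, and SALL1 and MEOX1 were at 0. The tested markers went opposite ways, since PAX2 rose while OSR1, a zinc finger factor of the early kidney, fell from 59 and 83 to 21 and 19 counts (log2 fold change -2.04, adjusted p = 2.76e-06, edgeR's quasi-likelihood test).

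Of 20 genes for cofactors of DACH, SIX-family and EYA proteins, 18 were tested, 4 rose, 6 fell and 8 were not called, with a median log2 fold change of -0.10. With the libraries scaled by their totals alone, which raised the median of all genes to 0.11, the split was 5 higher and 3 lower, and it was 4 higher and 4 lower with DESeq2's Wald test or without MET-KO replicate 2, and 4 higher and 3 lower without MET+ replicate 2. TLE4, a Groucho corepressor that SIX-family proteins can recruit, rose most, from 55 and 68 to 878 and 933 counts. Its level went from 6.81 ± 0.236 to 86.0 ± 0.122 CPM (SD, n = 2 each), and its log2 fold change was 3.65 (SE 0.14, adjusted p = 3.18e-21, edgeR's quasi-likelihood test). HDAC2, a histone deacetylase, rose from 162 ± 1.15 to 301 ± 8.21 CPM (SD, n = 2 each), and its log2 fold change was 0.90 (adjusted p = 3.19e-10, edgeR's quasi-likelihood test). TLE1, another Groucho corepressor, rose with a log2 fold change of 0.53 (adjusted p = 0.0027, edgeR's quasi-likelihood test). The corepressors that bind DACH1 moved the other way: SIN3A fell with a log2 fold change of -0.66 (adjusted p = 6.76e-05) and NCOR1 with one of -0.44 (adjusted p = 0.000148), both by edgeR's quasi-likelihood test. NCOR1 overlaps TTC19 and PIGL on the opposite strand, so its reads may be shared with theirs. SOBP, a zinc finger protein related to a fly SIX-binding protein, had a log2 fold change of -0.56 (adjusted p = 0.0283, edgeR's quasi-likelihood test), and this call was lost under 4 alternatives, namely scaling by library totals, DESeq2's Wald test, and leaving out MET+ replicate 2 or MET-KO replicate 2. SKI and SKIL, whose proteins share the DACH1 domain, were not called, with log2 fold changes of 0.22 and 0.20.

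Of 9 genes reported elsewhere as DACH1 targets, 7 were tested, 2 rose and 3 fell, with a median log2 fold change of -0.49. With MET+ replicate 2 left out, 5 fell. SOX2, a pluripotency factor, fell from 178 and 187 to 16 and 16 counts, a log2 fold change of -3.73 (SE 0.26, adjusted p = 3.13e-14, edgeR's quasi-likelihood test). CXCL8, a neutrophil chemokine, fell from 81.4 ± 2.16 to 15.3 ± 1.42 CPM (SD, n = 2 each), and its log2 fold change was -2.42 (adjusted p = 1.09e-17, edgeR's quasi-likelihood test). JUN, an AP-1 subunit, fell with a log2 fold change of -0.65 (adjusted p = 4.1e-05, edgeR's quasi-likelihood test). KLF4, an epithelial differentiation factor, rose from 22.2 ± 2.09 to 73.4 ± 3.80 CPM (SD, n = 2 each), and its log2 fold change was 1.73 (adjusted p = 4.58e-14, edgeR's quasi-likelihood test). FGF2, a growth factor, rose with a log2 fold change of 1.17 (adjusted p = 6.29e-11, edgeR's quasi-likelihood test), and it overlaps NUDT6 on the opposite strand, which had 65 to 116 counts. The cyclin D1 gene CCND1 had a log2 fold change of 0.05 and SNAI1, a repressor of CDH1, one of -0.49, and neither passed (adjusted p = 0.643 and 0.0702, edgeR's quasi-likelihood test). CXCL5, another neutrophil chemokine, gave 12 and 8 counts in MET+ against 1 and 2 in MET-KO, a ratio of 0.128 with a counting interval of 0.0244 to 0.433, and was not tested.

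Of 10 genes reported elsewhere as SIX-EYA targets, 5 were tested, 1 rose and 2 fell, with a median log2 fold change of -0.02, and 4 (CCNA1, SALL1, GDNF and MYOG) had 0 counts in every library. MYC, a growth regulator, rose from 72.2 ± 0.464 to 91.4 ± 0.497 CPM (SD, n = 2 each), and its log2 fold change was 0.34 (adjusted p = 0.00458, edgeR's quasi-likelihood test). SLC12A2, a sodium-potassium-chloride cotransporter, fell from 176 ± 9.15 to 62.2 ± 13.8 CPM (SD, n = 2 each), and its log2 fold change was -1.50 (adjusted p = 2.09e-13, edgeR's quasi-likelihood test). EZR, which encodes ezrin, the linker of membrane and actin, fell from 401 ± 3.56 to 218 ± 6.25 CPM (SD, n = 2 each), and its log2 fold change was -0.88 (adjusted p = 3.79e-10, edgeR's quasi-likelihood test). CCND1 and TGFBR1, a TGF-beta receptor, were not called.

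**Figure D5:**
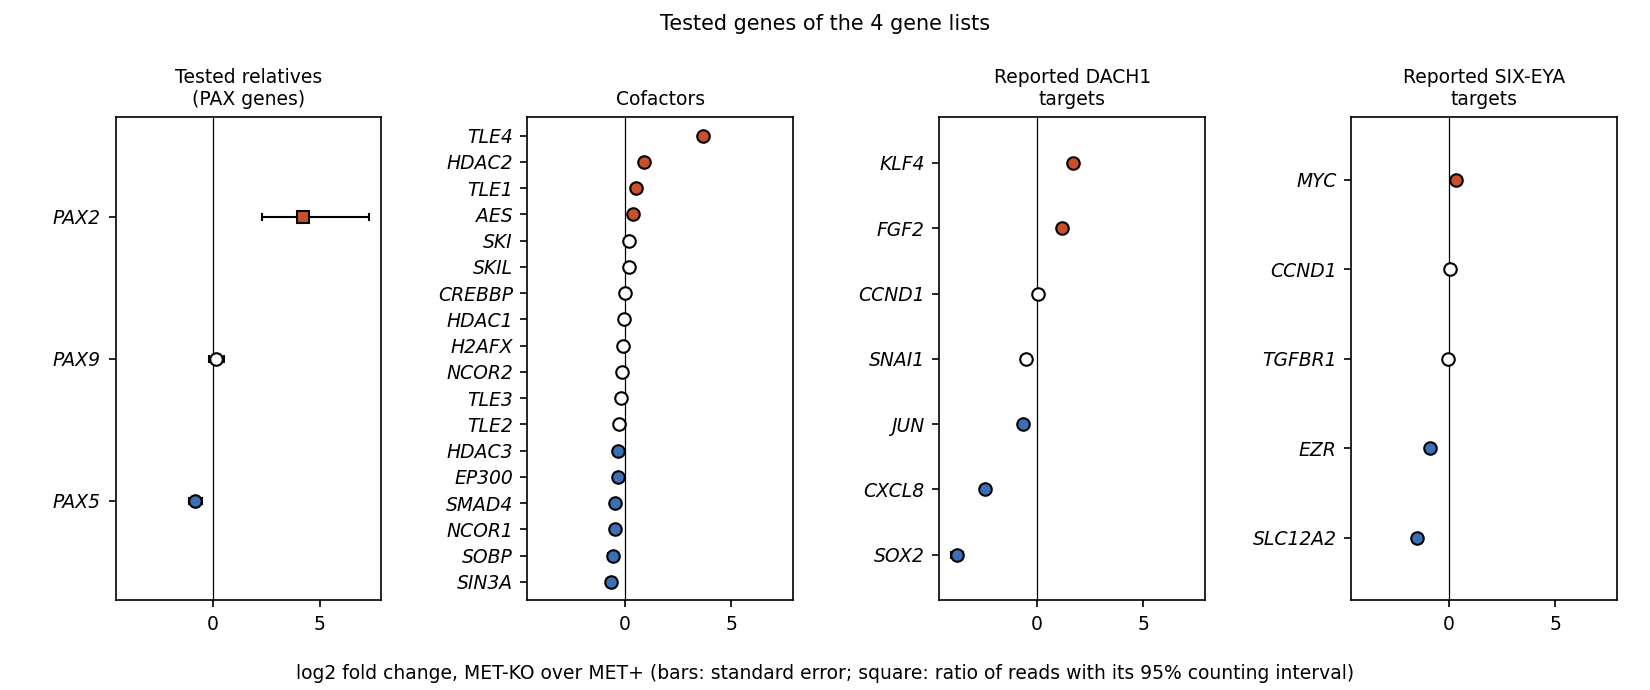
log2 fold change (MET-KO over MET+) of the tested genes of the 4 lists, with orange-red for higher, blue for lower and white for not called; bars are standard errors, and the square for PAX2 is a ratio of reads with its 95% counting interval. Each list holds genes on both sides of 0, with TLE4 at 3.65 and SOX2 at -3.73.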

How the data were processed

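RNA was sequenced from 2 MET+ and 2 MET-KO libraries, grouped by their titles, and the authors deposited whole counts of reads per gene without normalization (58825 genes, and 99 spike-in entries at 0). The submitters' processing notes name bcl2fastq, cutadapt 1.16, FastQC 0.11.7, MultiQC 1.5, STAR 2.5.4a, featureCounts 1.6.2, DESeq2 1.18.1 and GRCh38, and the strand setting and annotation release are not given in the sources used here. Symbols and positions came from GENCODE 29, in which 58552 IDs were found and 273 were not. Promoters came from the RefSeq table (GRCh38.p14).

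Genes kept by filterByExpr by group were tested in R 4.3.3 with edgeR 4.0.16 (TMM, quasi-likelihood test, condition only, Benjamini-Hochberg adjustment over all tested genes, threshold 0.05). The code was first run on simulated counts in which few genes changed. In these data 54.1% of tested genes were called, so that run does not show how the fit performs here. CPM used the TMM-scaled library size. Each standard error (SE) was derived as the absolute log2 fold change divided by the square root of the test's F statistic. Replicate numbers were not treated as pairs. As nothing says how separately the replicates were grown, p-values measure the spread between these libraries. Python 3.11.15 and matplotlib 3.10.9 drew the figures.

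The genes and lists were chosen with earlier results of these data known, and the lists were written from general knowledge. Genes named from a list are, among those past the threshold, the 3 that rose most and the 3 that fell most by log2 fold change, and the nearest tested gene on each side of a member. SNAI1, CCND1, TGFBR1, CXCL5, PAX6, SKI and SKIL, the markers, and the larger changes around SIX4, TARID and other overlapping genes, were named outside this rule after their values were seen. Alternatives were DESeq2 size factors, library totals, the Wald test of DESeq2 1.42.0, omitting the filter, requiring 10 counts per library, a replicate block, and leaving out each replicate. Some genes of these lists are not reported here.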

Additional observations from a re-analysis of the deposited data

How the results depend on the processing

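The count of members past the threshold, which the choice of genes fixes and which supports nothing, went from 2 to 1 with at least 10 counts in every library, where DACH1 could not enter the fit. Of 12 relatives, 2 were called, but 1 with DESeq2's Wald test, with at least 10 counts in every library and without MET+ replicate 2, and 3 with no filter or without MET-KO replicate 2. The total called in the other lists and over all genes stayed within 1.5 times (their split by direction moved as given with the cofactors and DACH1 targets), the latter between 5760 (DESeq2's Wald test) and 7547 (no filter) and from 6289 to 7083 with any replicate omitted. A replicate block gave 7055 genes in place of 7467 and the same number of members (2), and same-numbered libraries did not deviate together (r = -0.02 over 13801 genes), so the numbers were not taken as pairs. Across named genes 7 calls were lost (3 for PAX5, 4 for SOBP), and 2 neighbours were gained, CAMKMT beside SIX2 at -0.75 without MET+ replicate 2 and RPS12 beside EYA4 at -0.26 without MET-KO replicate 1. No called value changed direction. The PAX2 and TCF21 ratios without each MET+ replicate were added after seeing the data. With 1 library left in a group, that library is assumed to vary like the other group. The bound for DACH1 was recomputed for the scalings and the left-out replicates alone, and the 4 members at or under 3 counts have no value to vary. A design of 2 libraries per group and the depth of each library limit what can be seen of genes near the floor of 3 counts.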
